A study of Mus musculus with 15 samples.

Results

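Reactive astrocyte genes were followed library by library in bulk RNA-seq of mouse thalamus. The 8 genes are Gfap, Vim, Serpina3n, Cd44, Osmr, Lcn2, S100a6 and Aqp4, taken by name from the 29659 genes listed for each library, and all 8 were present and passed the filter on low values. The 15 libraries come from mice sampled at 4.5 months, and each library is 1 mouse. Every group is described as carrying human APOE4 in place of mouse Apoe, which the values of 1 ELKO library go against, as given with the libraries that stood apart. The 5EL mice (n = 5) are 5xFAD/APOE4+/+/Lilrb4a+/+, and the 5ELKO mice (n = 4) are 5xFAD/APOE4+/+/Lilrb4a-/-. EL mice (n = 3) are the APOE4 knock-in without 5xFAD and with Lilrb4a, and ELKO mice (n = 3) are APOE4+/+/Lilrb4a-/- without 5xFAD. The 5xFAD transgenes, which lead to amyloid deposition, are driven by a neuronal Thy1 promoter. The Lilrb4a deletion is carried by the whole animal and not by microglia alone, so it also affects peripheral myeloid cells. The tissue was PBS-perfused and frozen, and poly(A) RNA of the whole dissected piece was read.

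Astrocytes respond to injury, cytokines and amyloid plaques with a change of state called reactivity. Reactive cells build more intermediate filament protein, secrete protease inhibitors and complement factors, and alter receptors and adhesion molecules at the cell surface. GFAP is the usual marker of this state in tissue sections. In the thalamus resting astrocytes hold little GFAP compared with those of white matter, and 5xFAD mice deposit plaques there. A bulk sample adds all cells together, so fewer cells of a type and less RNA per cell cannot be told apart in any value below.

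The deposited values are on a log2 scale without read counts. The number of reads behind each value can therefore not be derived from the files, and differences of genes with low values are understated because the values of low genes were drawn together. A difference of 1 on this scale corresponds to a doubling for well expressed genes. Groups were compared with limma, a linear model that shares information on the spread between genes, with Benjamini-Hochberg adjustment over all 15804 genes tested (15743 for 5ELKO against 5EL). A gene was called when its adjusted p was under 0.05. None of the 8 genes was called in any comparison, so the differences below are given as values with their unadjusted p and interval.

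Some libraries stood apart. Lilrb4a, the deleted gene, was at 2.33 in all 7 libraries labelled as lacking it and at 2.34 to 2.66 in the other 8, with 5EL values of 2.40 to 2.66 and EL values of 2.34 to 2.42, below the level required for testing. ELKO replicate 1 held mouse Apoe at 10.90, against 5.92 to 6.37 in the other 14, which goes against a homozygous human knock-in. The mean of 12 choroid plexus markers was 8.28 in 5EL replicate 1 and 8.68 in ELKO replicate 2, against 6.07 to 6.61 elsewhere. Markers of thalamic neurons averaged 12.26 to 12.57 in all 15 libraries. The neuron gene Gad1 was at 8.60 in EL replicate 3, 9.37 in 5EL replicate 1 and 9.52 in ELKO replicate 3. Elsewhere it was at 10.37 to 11.90. The mean of ependymal markers was lowest in EL replicate 3 (4.96) and ELKO replicate 3 (4.98), against 5.12 to 5.82 elsewhere. EL replicate 3 and ELKO replicate 3 were also the lowest in Gfap, Vim and Serpina3n. Whether the dissected pieces differed was not tested. Astrocyte markers that do not depend on reactivity, a list of 16 that includes the glutamate transporter gene Slc1a2, averaged 12.06 to 12.25. The 7 neutrophil markers lay near the floor, at a mean of 0.72 to 0.79. Xist was at most 0.31 and Ddx3y at least 10.34 in every library. The libraries therefore did not differ in sex as read from these genes.

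Gfap and Serpina3n were the 2 members that separated 5EL from EL completely. Gfap encodes the main intermediate filament protein of astrocytes and lies on chromosome 11 of GRCm38 from 102887336 to 102900912, minus strand. Its log2 values in EL were 10.36, 10.48 and 9.66 in replicates 1 to 3. In 5EL they were 11.49, 11.47, 11.06, 11.70 and 11.85 in replicates 1 to 5. Every 5EL library lay above every EL library. The group means were 11.51 ± 0.30 (SD, n = 5) and 10.17 ± 0.45 (SD, n = 3), a difference of 1.35 with a standard error of 0.31 and a 95% interval of 0.69 to 2.0, or 2.54-fold. Serpina3n encodes a secreted serine protease inhibitor of the antichymotrypsin family and lies on chromosome 12 from 104406729 to 104414329, plus strand. Its values were 8.02, 7.95 and 7.61 in EL and 9.05, 8.54, 8.63, 9.11 and 8.92 in 5EL, again without overlap. The difference was 0.99 (standard error 0.25, 95% interval 0.46 to 1.52), or 1.98-fold, from 7.86 ± 0.22 (SD, n = 3) to 8.85 ± 0.25 (SD, n = 5).

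Across all genes, limma called 0 of 15804 (0%) between 5EL and EL at an adjusted p under 0.05, while 1217 (7.7%) had an unadjusted p under 0.05. Ordered by p, Gfap was at rank 5 and Serpina3n at rank 19 of all genes tested, each with an adjusted p = 0.630 (limma with Benjamini-Hochberg adjustment). Groups that did not overlap were found with 5EL higher for 1.68% of the genes tested, these 2 of the 8 members among them, and with 5EL lower for 1.59%, no member among them. The exact permutation test, two-sided, gave p = 0.0357 for each gene, the smallest value that 5 against 3 libraries allow (0.571 after adjustment over the 32 tests of 8 genes in 4 comparisons). Leaving out any 1 of the 15 libraries left the Gfap difference between 1.09 and 1.5 and the Serpina3n difference between 0.86 and 1.07.

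**Figure D1:**
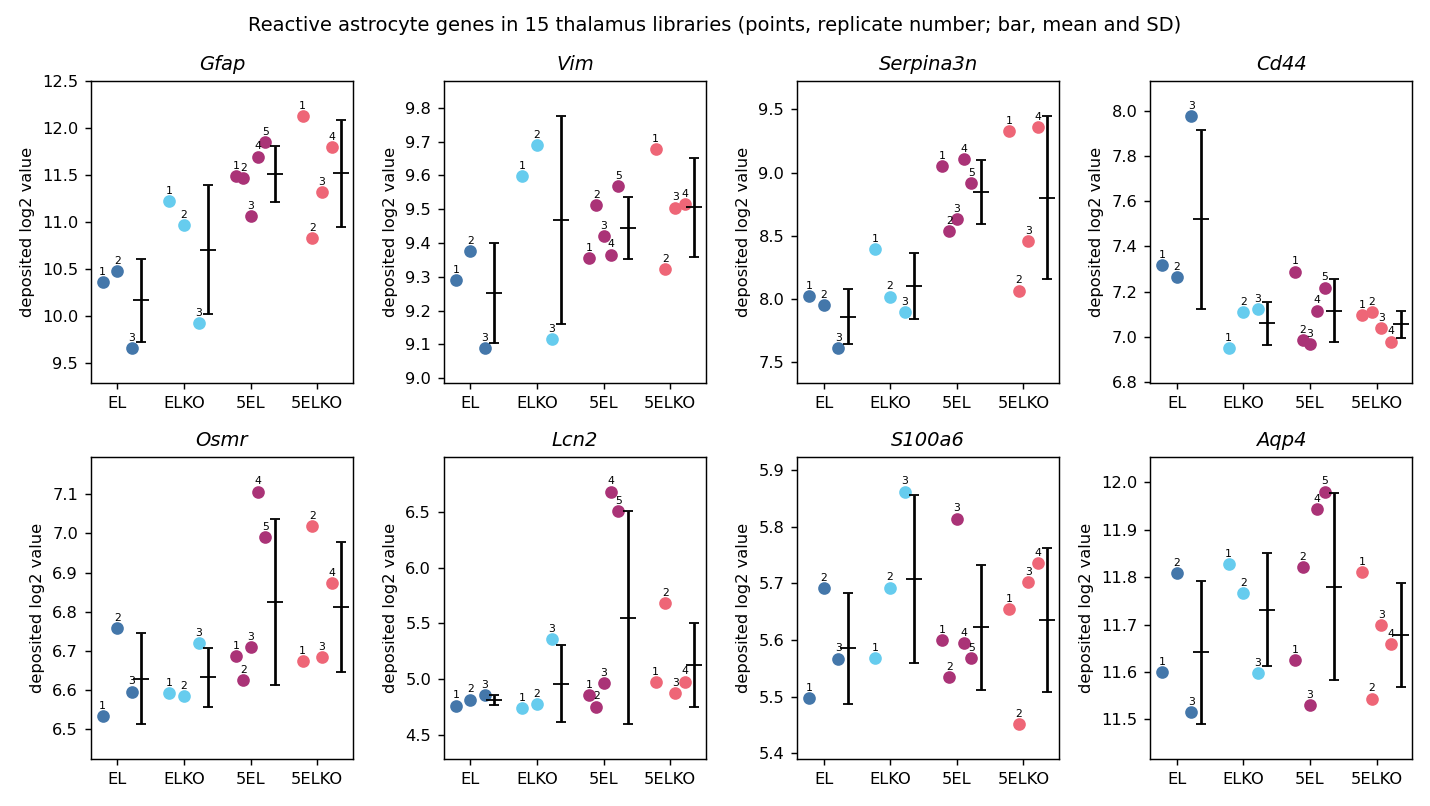
Deposited log2 value (vertical axis) of each of the 8 genes in EL, ELKO, 5EL and 5ELKO libraries. Points are libraries with their replicate number and bars give mean and SD of the group (n = 3, 3, 5 and 4); vertical axes differ between panels. All 5EL points lie above all EL points for Gfap and Serpina3n, EL replicate 3 stands alone for Cd44 at 7.98, and 5EL replicates 4 and 5 stand alone for Lcn2.

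In mice without Lilrb4a the same 2 genes had the largest 5xFAD differences of the 8, but their groups overlapped. Gfap was at 11.23, 10.97 and 9.93 in ELKO and at 12.13, 10.83, 11.32 and 11.80 in 5ELKO. The lowest 5ELKO library, replicate 2, lay between the ELKO libraries. The difference was 0.81 (standard error 0.32, 95% interval 0.13 to 1.5, adjusted p = 0.999 from limma). Serpina3n was at 8.40, 8.02 and 7.90 in ELKO and at 9.33, 8.07, 8.46 and 9.36 in 5ELKO, a difference of 0.70 (standard error 0.26, 95% interval 0.14 to 1.26). Replicate 2 was again the lowest 5ELKO library and lay below ELKO replicate 1. Of all genes, limma called 0 of 15804 (0%) here and 375 (2.37%) had an unadjusted p under 0.05, Gfap and Serpina3n alone of the 8 members. Groups did not overlap for 1.78% of all genes with 5ELKO higher and for 1.61% with 5ELKO lower, and for 0 of the 8 members. Without ELKO replicate 3, the ELKO library lowest in Gfap, the Gfap difference was 0.42. Without ELKO replicate 1, the library with mouse Apoe, the Gfap difference was 1.07. The Serpina3n difference was 0.94 without 5ELKO replicate 2, 0.60 without ELKO replicate 3 and 0.51, its lowest, without 5ELKO replicate 4.

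Averaged over both Lilrb4a genotypes, the 5xFAD difference was 1.08 for Gfap (95% interval 0.60 to 1.55) and 0.84 for Serpina3n (95% interval 0.46 to 1.23), with ranks 4 and 7 by p and an adjusted p of 0.653 for both (limma). In this comparison 0 of 15804 genes (0%) were called and 1038 (6.57%) had an unadjusted p under 0.05, 3.56% with 5xFAD higher and 3.01% with 5xFAD lower. Of the 8 members, Gfap, Serpina3n and Osmr were among the higher and Cd44 among the lower. The test of whether the 5xFAD difference depends on Lilrb4a gave -0.54 for Gfap (95% interval -1.48 to 0.41) and -0.29 for Serpina3n (95% interval -1.06 to 0.48), where a negative value means a smaller 5xFAD difference without Lilrb4a. Single libraries moved these values, to between -0.93 (without ELKO replicate 3) and -0.28 (without ELKO replicate 1) for Gfap, and to between -0.48 (without 5ELKO replicate 4) and -0.04 (without 5ELKO replicate 2) for Serpina3n. Both intervals hold 0, and both also hold values as large as the 5xFAD difference between 5EL and EL.

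Between 5ELKO and 5EL, the comparison of mice with amyloid that asks what Lilrb4a deletion alters, the means of Gfap were 11.52 ± 0.57 (SD, n = 4) and 11.51 ± 0.30 (SD, n = 5). The difference was 0.01 with a 95% interval of -0.48 to 0.49. For Serpina3n it was -0.05, from 8.85 ± 0.25 (SD, n = 5) to 8.80 ± 0.65 (SD, n = 4), with an interval of -0.56 to 0.47. Both genes spread more widely in 5ELKO than in 5EL, with replicates 1 and 4 at the top and replicate 2 at the bottom. None of the 8 genes had an unadjusted p under 0.05, and none had groups that did not overlap. Of all genes, 3 of 15743 (0.0191%) were called and 392 (2.49%) had an unadjusted p under 0.05. One of the 3 was a relative in the Serpina3 gene cluster, Serpina3k, which was at 4.80 to 5.10 in 5EL and at 5.49 to 5.79 in 5ELKO, a rise of 0.68 (adjusted p = 0.0167, limma with Benjamini-Hochberg adjustment). Serpina3k is a liver-enriched gene, and 7 of 8 hepatocyte markers, itself included, also had an unadjusted p under 0.05 with 5ELKO higher. No gene was called in this comparison when all 15 libraries were fitted together, and EL replicate 1 held Serpina3k at 5.89.

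The promoter sequences of these 2 genes are shown because both have been described as targets of inflammatory transcription factors, and because their levels tracked each other across libraries. The 250 bases upstream of the RefSeq start (GRCm38.p6) are given 5′ to 3′ in the direction of the gene, at chr11:102897201-102897450 on the minus strand for Gfap and chr12:104406458-104406707 on the plus strand for Serpina3n. Neither window overlaps an annotated exon, although that of Gfap lies within the span annotated for the gene. Capitals mark matches to GGGNNNNNCC, a loose form of the NF-κB site.
Gfap: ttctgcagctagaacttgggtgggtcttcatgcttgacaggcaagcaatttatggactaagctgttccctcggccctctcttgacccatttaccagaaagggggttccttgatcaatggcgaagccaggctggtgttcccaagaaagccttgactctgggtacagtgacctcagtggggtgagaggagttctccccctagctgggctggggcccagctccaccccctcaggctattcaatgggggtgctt
Serpina3n: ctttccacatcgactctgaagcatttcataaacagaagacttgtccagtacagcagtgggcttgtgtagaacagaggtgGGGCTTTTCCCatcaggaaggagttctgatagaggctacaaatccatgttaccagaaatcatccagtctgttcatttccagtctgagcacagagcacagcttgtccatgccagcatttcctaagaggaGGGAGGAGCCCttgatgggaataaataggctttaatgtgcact
The window of Serpina3n held this motif at 2 places, each matched on both strands with an offset of 1 base, and that of Gfap held none. RefSeq promoters were at hand for 7 of the 8 genes, Aqp4 being the other, and 6 of the 7 held the motif, against 45.4% of 27025 mouse promoters searched in the same 250-base window on both strands. The STAT core TTCNNNGAA, which STAT3 binds, was in 0 of the 7 and in 7.18% of all. The AP-1 motif TGANTCA was in 0 of the 7 and in 6.87% of all, and TTGCNNAA, a core bound by C/EBP factors, was in Lcn2 and in 9.55% of all. A match of letters is no evidence of binding, and the absence of one concerns these windows alone.

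Vim, on chromosome 2 from 13573927 to 13582826, plus strand, encodes vimentin, which forms filaments together with GFAP and is also made by endothelial cells and fibroblasts. It was at 9.29, 9.38 and 9.09 in EL, at 9.60, 9.69 and 9.12 in ELKO, at 9.36, 9.51, 9.42, 9.37 and 9.57 in 5EL and at 9.68, 9.32, 9.50 and 9.51 in 5ELKO. Its whole range over 15 libraries was 9.09 to 9.69 and all groups overlapped. The difference between 5EL and EL was 0.19 (95% interval -0.05 to 0.44; 0.11 without EL replicate 3) and that between 5ELKO and ELKO was 0.04 (95% interval -0.22 to 0.29). Replicate 3 of both EL and ELKO gave the lowest Vim values of all libraries, as it did for Gfap. Without ELKO replicate 3 the difference between 5ELKO and ELKO was -0.14. Of the other genes for filament partners, Nes, Synm, Des and Plec, none was called, and the 6 genes of that list had a median difference of 0.09 between 5EL and EL, against 0.0006 for all genes tested.

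Aqp4 encodes the water channel of astrocyte endfeet and lies on chromosome 18. It had the highest level per length of the 8 genes in EL, 9.0 on a log2 scale per kilobase of exon, followed by Gfap at 8.09, Vim at 7.01, Serpina3n at 6.82, S100a6 at 5.13, Cd44 at 4.76, Lcn2 at 3.42 and Osmr at 3.03. Its values were 11.60, 11.81 and 11.51 in EL, 11.83, 11.77 and 11.60 in ELKO, 11.62, 11.82, 11.53, 11.94 and 11.98 in 5EL, and 11.81, 11.54, 11.70 and 11.66 in 5ELKO. All groups overlapped, and the difference between 5EL and EL was 0.14 (95% interval -0.08 to 0.36), with 0.075 without EL replicate 3 and 0.22 without EL replicate 2. Of the 8 genes for the endfoot and the anchoring of Aqp4, among them the dystroglycan gene Dag1, 0 had an unadjusted p under 0.05 in this comparison.

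S100a6, on chromosome 3 from 90612882 to 90624181, plus strand, encodes a small calcium-binding protein found in astrocytes and fibroblasts. The means of its groups lay closest together of the 8 genes. Its values were 5.50, 5.69 and 5.57 in EL, 5.57, 5.69 and 5.86 in ELKO, 5.60, 5.53, 5.81, 5.60 and 5.57 in 5EL, and 5.65, 5.45, 5.70 and 5.74 in 5ELKO, and all groups overlapped. The difference between 5EL and EL was 0.04 (95% interval -0.14 to 0.22). Of 7 genes of the S100 family that were tested, 0 had an unadjusted p under 0.05 in that comparison.

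Osmr and Lcn2 were high together in a small set of libraries. Osmr, on chromosome 15 from 6813577 to 6874969, minus strand, encodes the receptor subunit that pairs with gp130 to bind oncostatin M. It was at 6.53, 6.76 and 6.60 in EL, at 6.59, 6.58 and 6.72 in ELKO, at 6.69, 6.63, 6.71, 7.11 and 6.99 in 5EL and at 6.67, 7.02, 6.68 and 6.87 in 5ELKO. The 4 highest values were all from 5xFAD mice, namely 5EL replicates 4 and 5 and 5ELKO replicates 2 and 4. The difference was 0.19 between 5EL and EL (95% interval -0.04 to 0.43), 0.18 between 5ELKO and ELKO (95% interval -0.07 to 0.43) and 0.19 averaged over both (95% interval 0.02 to 0.36, adjusted p = 0.693 from limma).

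Lcn2, on chromosome 2 from 32384633 to 32388252, minus strand, encodes lipocalin 2, a secreted protein that binds bacterial siderophores and is made by astrocytes after systemic inflammation. It was at 4.76, 4.82 and 4.86 in EL and at 4.86, 4.75, 4.96, 6.68 and 6.51 in 5EL. The other groups gave 4.74, 4.77 and 5.36 in ELKO and 4.97, 5.68, 4.87 and 4.98 in 5ELKO. Thus 5EL replicates 4 and 5 lay far above the other 3 libraries of their group, which were at 4.75 to 4.96. The difference between 5EL and EL was 0.74 (95% interval -0.09 to 1.57), and 0.46 without 5EL replicate 4. Between 5ELKO and 5EL it was -0.43 (95% interval -1.27 to 0.42), and -0.14 without 5EL replicate 4.

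The 3 libraries highest in Lcn2 were also the 3 highest in Osmr, 5EL replicates 4 and 5 and 5ELKO replicate 2. Over 15 libraries the correlation of the 2 genes was 0.88, and 0.89 after the group means were removed, and Lcn2 was the gene most like Osmr of all tested. The next by this measure were Podxl, Gbp2, Socs5 and Bfsp2, of which Gbp2 is an interferon-induced GTPase gene listed among neurotoxic A1 astrocyte genes. These correlations are a description over libraries that share 4 genotypes, and in the plot of both genes 3 points lie apart from the rest. The correlation without these 3 libraries was not computed. The choroid plexus mean in those 3 libraries was 6.27 to 6.48, within the range of the other libraries, and markers of neutrophils, another source of lipocalin 2, were near the floor there as elsewhere. The cell source of Lcn2 was not tested. Gfap correlated with Lcn2 at 0.29 and with Osmr at 0.37 over 15 libraries, and at -0.04 and -0.09 after group means were removed. It shared 3 of its 5 highest libraries with each of them, 5EL replicates 4 and 5 and 5ELKO replicate 4, whereas 5ELKO replicate 2 was low in Gfap.

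**Figure D2:**
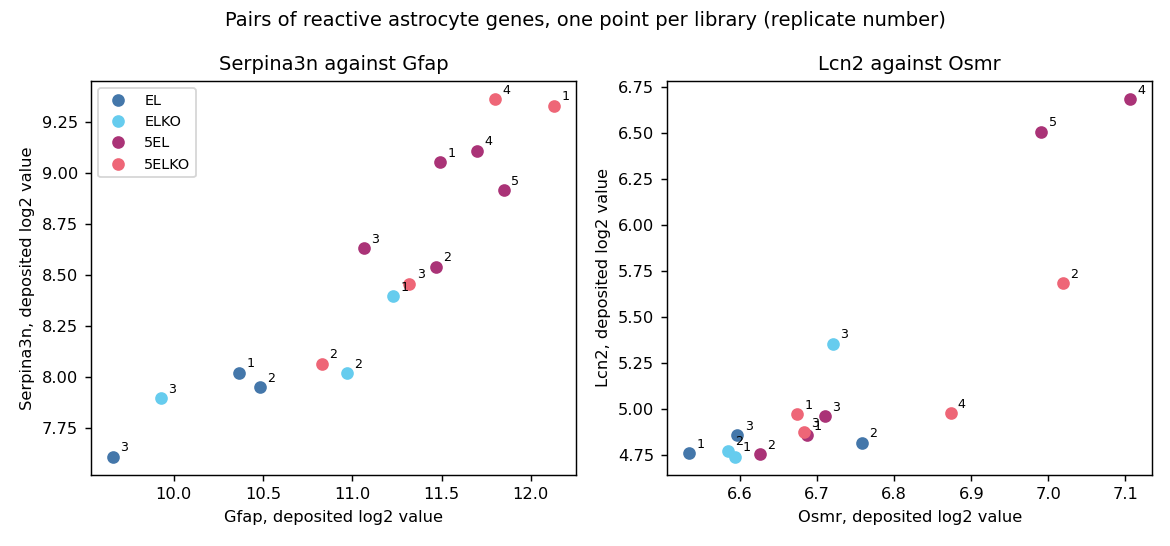
Serpina3n against Gfap (left) and Lcn2 against Osmr (right), both axes deposited log2 values, with 1 point per library coloured by genotype and marked with its replicate number. On the left the points form a continuous band from EL to 5ELKO, and on the right 5EL replicates 4 and 5 and 5ELKO replicate 2 lie apart from the rest.

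Several ligands around Osmr were low, and differences of the receptors and transducers were small. Oncostatin M itself (Osm) was listed at 1.16 to 1.25, Il6 at 0.32 to 0.37 and Lif at 3.01 to 3.13, all under the level required for testing. Among the other ligand genes of the list, Cntf and Il11 were also under that level. Ctf1, at 4.73 to 4.97, and Clcf1, at 3.40 to 3.71, were above it. Of 13 genes tested among 18 for gp130 cytokines, receptors and transducers, 1 had an unadjusted p under 0.05 with 5EL higher than EL, the leukaemia inhibitory factor receptor gene Lifr (0.27), against 3.82% of all genes. Averaged over Lilrb4a genotypes there were 3, Osmr, Il6ra (0.16) and Stat3 (0.13), against 3.56% of all genes. Il6st, which encodes gp130, differed by 0.14, and Socs3, a feedback inhibitor induced by STAT3, by 0.01. None was called, and the names given from this list were picked with their values known. The 2 receptor genes for lipocalin 2, Slc22a17 and Lrp2, had a median difference of 0.10 between 5EL and EL and 0 had an unadjusted p under 0.05.

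Cd44 ran the other way from Gfap. It encodes the surface receptor for hyaluronan and osteopontin and lies on chromosome 2 from 102811141 to 102901665, minus strand. Its values were 7.32, 7.26 and 7.98 in EL and 6.95, 7.11 and 7.12 in ELKO. They were 7.29, 6.99, 6.97, 7.12 and 7.22 in 5EL and 7.10, 7.11, 7.04 and 6.98 in 5ELKO. EL had the highest mean, 7.52 ± 0.40 (SD, n = 3), and the means of the other groups were 7.06 to 7.12. The 3 ELKO libraries lay below all EL libraries, as did 2.53% of all genes tested, and the difference was -0.46 (95% interval -0.77 to -0.15, adjusted p = 0.998 from limma). The exact permutation test, two-sided, gave p = 0.1, the smallest that 3 against 3 allow. Of all genes, limma called 0 of 15804 (0%) between ELKO and EL and 372 (2.35%) had an unadjusted p under 0.05, 1.05% with ELKO higher and 1.3% with ELKO lower, Cd44 alone of the members among the latter. The difference between 5EL and EL was -0.40 (95% interval -0.68 to -0.13). Both rest largely on EL replicate 3, without which they were -0.23 and -0.18. The interaction was 0.40 (95% interval 0.00 to 0.80) and 0.17 without that library. In that comparison 0 of 15804 genes (0%) were called and 432 (2.73%) had an unadjusted p under 0.05. EL replicate 3 also held the lowest Gfap and Serpina3n. Its mean over the 8 thalamic neuron markers was 12.44, rank 9 of 15, but single markers lay at opposite ends of their ranges there. Prkcd was highest of all 15 libraries, at 14.72 against 13.22 to 14.05 elsewhere. Rora at 13.75 and Lef1 at 10.67 were also highest there. Calb2 was lowest of all 15, at 10.72 against 12.29 to 13.08 elsewhere.

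Between ELKO and EL, the comparison of Lilrb4a genotypes without amyloid, the means of Gfap were 10.71 ± 0.69 (SD, n = 3) and 10.17 ± 0.45 (SD, n = 3), and the difference was 0.54 (95% interval -0.19 to 1.27). Of all genes 2.06% had ELKO above EL without overlap, and 0 of the 8 members did. Libraries of EL and ELKO with the same number shared their deviations across genes. Within these pairs ELKO was higher in Gfap by 0.86, 0.49 and 0.27 in replicates 1, 2 and 3, in Vim by 0.31, 0.31 and 0.03, and in Serpina3n by 0.37, 0.07 and 0.29. Cd44 differed by -0.37, -0.15 and -0.86. With the replicate pairs as a block the smallest adjusted p of the 8 genes was 0.772 (limma). The Gfap difference depended on single libraries, at 0.28 without ELKO replicate 1, the library with mouse Apoe, 0.29 without EL replicate 3, and 0.93 without ELKO replicate 3. The Vim difference was 0.22 with all libraries and 0.11 without ELKO replicate 2. That library had high choroid plexus markers, the highest mean of fibroblast markers and the highest Vim.

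**Figure D3:**
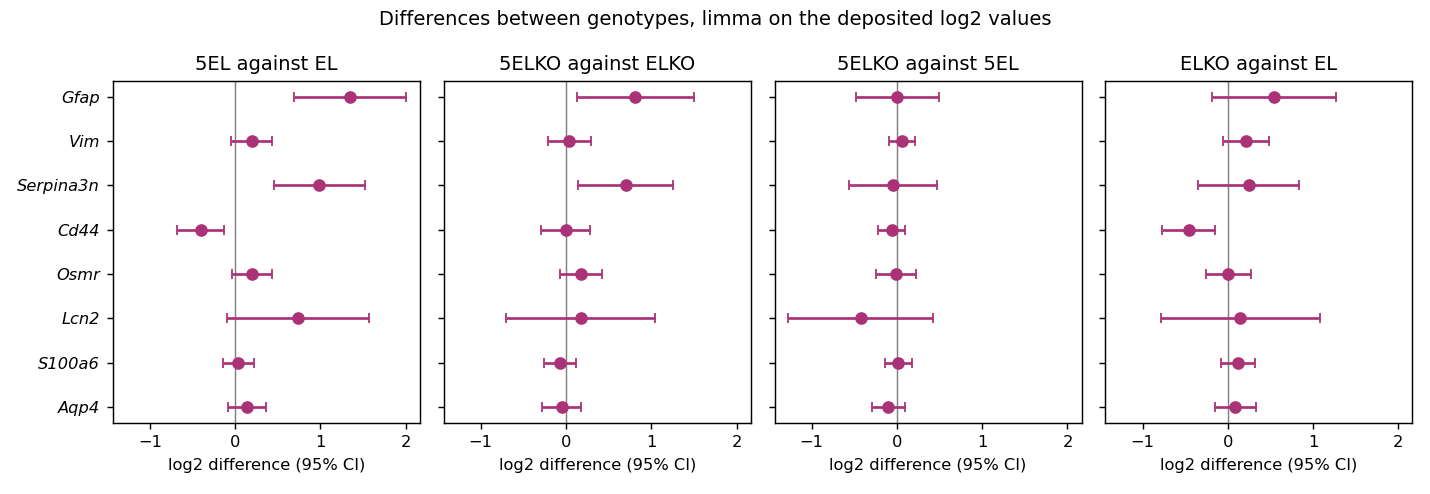
Log2 differences of the 8 genes in 4 comparisons, with limma's 95% confidence intervals (bars); the vertical line marks 0. Gfap and Serpina3n have intervals above 0 in both 5xFAD comparisons, Cd44 has intervals below 0 in 5EL against EL and ELKO against EL, and all 8 intervals hold 0 in 5ELKO against 5EL.

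Taken library by library, the 8 genes fell into several courses. Gfap and Serpina3n shared their 5 highest libraries, 5EL replicates 1, 4 and 5 and 5ELKO replicates 1 and 4, and correlated at 0.92 over 15 libraries and at 0.80 within groups. Gfap and Vim correlated at 0.85 within groups and Gfap and Aqp4 at 0.77, whereas Serpina3n and Vim were at 0.44. S100a6 correlated with none of the other 7 above 0.15 in either measure. Its lowest values were -0.27 with Cd44 over 15 libraries and -0.23 with Aqp4 within groups. The gene most like Gfap was the complement gene C4b (0.96), which is made by reactive astrocytes and oligodendrocytes, followed by Fam129a, Serpina3n, Kcnj2 and Spint1. The 5 genes most like Serpina3n, by contrast, were Csf1r (0.97), Clec7a (0.97), Cst7 (0.95), Laptm5 and Irf8, all known from microglia and other myeloid cells. The genes most like Vim were Tnpo1, Fzd7, Myof, Xpr1 and Rprd1b (0.87 to 0.92).

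**Figure D4:**
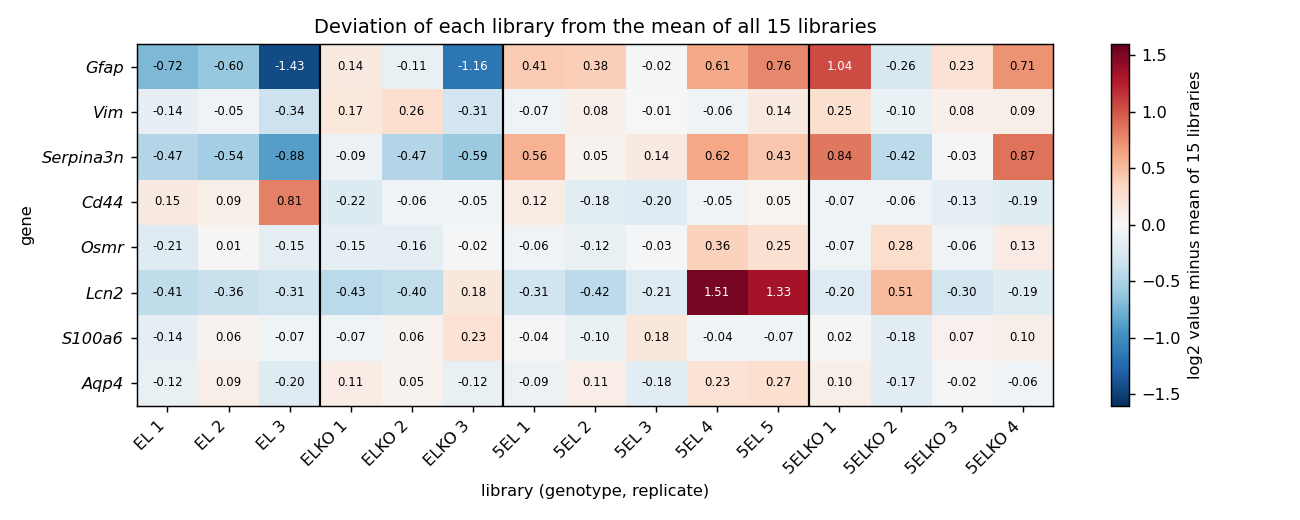
Log2 value of each of the 8 genes (rows) in each library (columns, grouped by genotype) minus that gene's mean over 15 libraries, given by colour and printed number. Gfap and Serpina3n are below their means in all 3 EL libraries, Lcn2 reaches 1.51 and 1.33 above its mean in 5EL replicates 4 and 5, and S100a6 stays within 0.23 of its mean.

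Microglial markers moved with both genes. The mean of 13 genes of disease-associated microglia, a state of microglia at plaques marked by genes such as Cst7 and Itgax, was 6.99 to 7.05 in EL, 7.05 to 7.15 in ELKO, 7.16 to 7.65 in 5EL and 7.09 to 7.69 in 5ELKO. The 5 libraries highest in this mean were the same 5 that were highest in Gfap and in Serpina3n, and 5ELKO replicate 2, low in both, was the lowest 5xFAD library in it. The list contains no member of the 8. Between 5EL and EL, 11 of its 13 genes had an unadjusted p under 0.05 with 5EL higher, with a median difference of 0.46, and 4 of 9 general microglia markers did, against 3.82% of all genes tested. The part of microglia in the Gfap and Serpina3n values was not tested.

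C4b was at 7.94, 7.69 and 7.25 in EL and at 8.52, 8.39, 8.08, 8.58 and 8.42 in 5EL, with no overlap and a difference of 0.77. It was at 8.07, 7.94 and 7.50 in ELKO and at 8.69, 8.04, 8.39 and 8.82 in 5ELKO, a difference of 0.65. In both 5xFAD groups the library lowest in Gfap was also the lowest in C4b, as in EL and ELKO.

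Wider astrocyte lists gave the surroundings of the 8 genes. Between 5EL and EL, 3.82% of all genes had an unadjusted p under 0.05 with 5EL higher and 3.88% with 5EL lower. Of 14 genes of disease-associated astrocytes, a list that holds Gfap, Vim, Serpina3n, Osmr and S100a6, 7 were higher by that measure and 0 lower, with a median difference of 0.19. Besides Gfap, Serpina3n and C4b they were the cathepsin gene Ctsb (0.17), the clusterin gene Clu (0.21), Ggta1 (0.17) and Cd9 (0.23), and Cd9 and Ctsb are also strongly expressed by microglia. Of 11 pan-reactive genes tested, 3 were higher, Gfap, Serpina3n and the ceruloplasmin gene Cp (0.22), and 1 lower, Cd44. Of 11 A1 genes 2 were higher, H2-D1 (0.21) and Ggta1, and of 8 A2 genes 1, Cd14 (0.43), a lipopolysaccharide co-receptor that microglia express. Of 16 homeostatic astrocyte genes 1 was higher, Mfge8 (0.18), and 0 lower, with a median of -0.06. None of these genes was called, and those named beyond the 8 were picked with their values known.

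In 5ELKO against ELKO, where 1.48% of all genes had an unadjusted p under 0.05 with 5ELKO higher, 3 of the 14 disease-associated astrocyte genes did so, Gfap, Serpina3n and C4b, and 3 of 11 pan-reactive genes, with Aspg (0.26) as the third. In 5ELKO against 5EL, where 1.53% of all genes were higher and 0.959% lower by that measure, 0 genes of the disease-associated astrocyte, pan-reactive, A1, A2, gp130 and homeostatic astrocyte lists were either, and the medians of these lists lay between -0.03 and 0.02. The disease-associated microglia list gave 0 of 13 in either direction there, with a median of -0.04. In ELKO against EL, 1.05% of all genes were higher by that measure. The disease-associated astrocyte list had 1 gene of 14 higher there, Gsn. The median of that list was 0.13, against 0.003 for all genes tested.

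**Figure D5:**
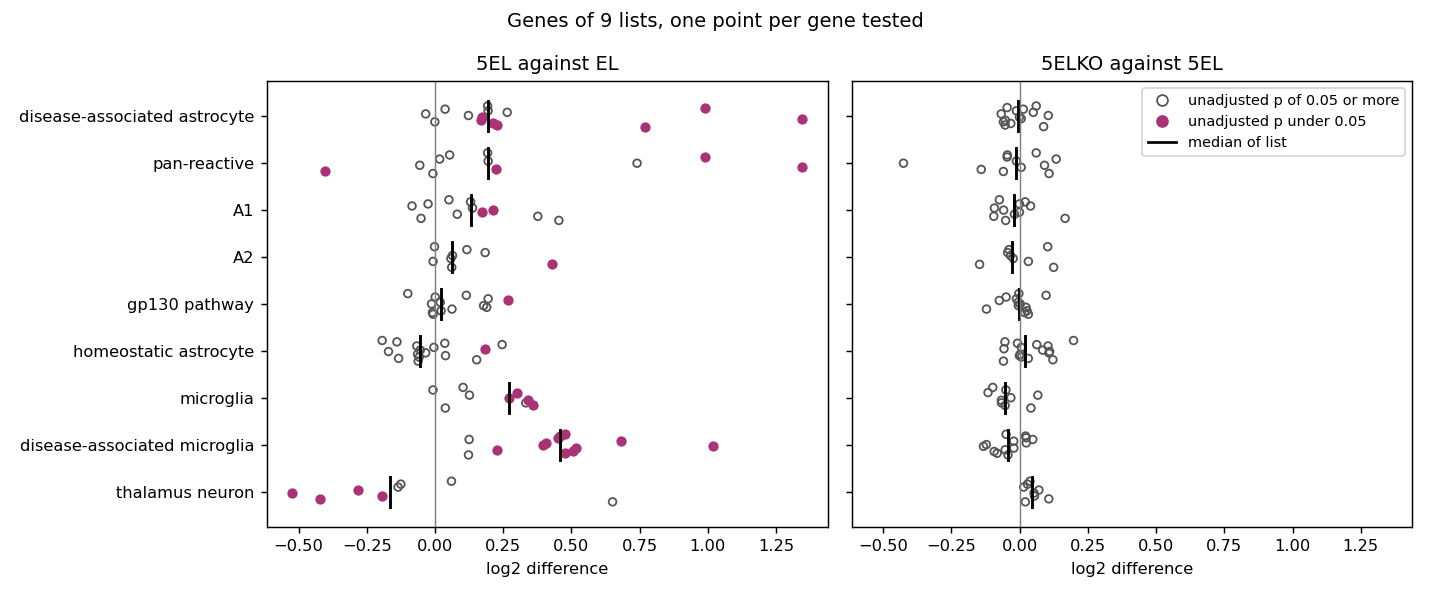
Log2 difference (horizontal axis) of every tested gene of 9 lists in 5EL against EL (left) and 5ELKO against 5EL (right). Filled points have an unadjusted p under 0.05 in limma, open points do not, and black ticks give the list median. On the left the disease-associated microglia and astrocyte lists extend to the right with medians of 0.46 and 0.19, and on the right all list medians lie close to 0 and no point is filled.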

How the data were processed

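RNA-seq of thalamus was read in 15 libraries. Upstream, the authors used Trimmomatic 0.39 for trimming, HISAT2 2.2.1 for alignment (GRCm38), SAMtools 1.16.1 for sorting, featureCounts 2.0.3 for unstranded counting of exonic read pairs per gene name, and DESeq2 1.38.3 for differential expression. The deposited log2 values are not these counts, and the transform is not given in the sources used here. Low genes vary little on this scale (median within-group SD 0.00372 for genes with a mean under 0 and 0.113 for means of 6 to 8). No count model was run. The files give no depth per library. The study's supplement lists total reads, RNA integrity and mapping rates for 5EL and 5ELKO libraries, and these were not used here. It lists more 5ELKO libraries than were read here, and its lowest RNA integrity values are from 5ELKO.

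The filter kept genes that reached 3.32 in log2 (10 on the linear scale) in 3 of 15 libraries, or 4 of 9 for 5ELKO against 5EL. Linear models used limma 3.58.1 (lmFit, then eBayes with the trend option) under R 4.3.3. The fit was tested on simulated data. Two-sided exact permutation tests used scipy 1.17.1. All comparisons of groups with different 5xFAD status, and ELKO against EL, were fitted on all 15 libraries. P-values of limma set a difference against the spread between mice within groups, which was pooled over the groups of a fit. The main fits and the permutation tests did not use the pairing of EL and ELKO libraries described below. No 2 of the 105 pairs of libraries held identical values.

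The members and gene lists were chosen with earlier results of these data known. The genes named are the 8 members, up to 5 called genes of other lists in each comparison, the 5 genes most correlated with Gfap, Vim, Serpina3n and Osmr, and markers whose level moved with a result. Positions are from GENCODE M21, which holds 28214 of the 29659 symbols. The labels number replicates. Deviations of same-numbered EL and ELKO libraries correlated at 0.325 to 0.742 over 3 of 3 pairs, so these numbers were taken to pair the libraries. Same-numbered libraries of the other groups compared correlated at -0.320 to 0.228 and were not taken as pairs. The labels state no pairing, so that of EL and ELKO was read from the values alone. What the paired libraries share was not tested.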

Additional observations from a re-analysis of the deposited data

Results flagged for a closer look

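Among 16 checks of 8 genes in the 5EL and 5ELKO groups, 2 found a library far from the others of its group, where chance gives about 1 in 20. Lcn2 in 5ELKO replicate 2 was at 5.68 against 4.87 to 4.98 in the other 3 libraries, a gap of 0.872 of the range of the group. S100a6 in 5EL replicate 3 was at 5.81 against 5.53 to 5.60 in the other 4 libraries, a gap of 0.769 of the range. No member passed the test of whether its 5xFAD difference depends on Lilrb4a.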

How the results depend on the processing

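None of the 8 genes was called in any comparison under any of the settings run. The number of genes called between 5EL and EL was 1 with no filter on low values, and 0 to 31 when 1 library was left out (31 without EL replicate 1). Between 5ELKO and ELKO it was 0 to 2, and between ELKO and EL 0 to 1, both highest without EL replicate 1. Between 5ELKO and 5EL the 3 calls were 1 with no filter, 1 with the replicate block, 0 with all 15 libraries in the fit, and 0 to 4 with 1 library left out, with 0 without 5EL replicates 3, 4 or 5 or 5ELKO replicates 1 or 4. The causes were not tested. With the EL and ELKO pairs as a block, the Gfap difference between 5EL and EL stayed at 1.35 (adjusted p = 0.0501, limma), and its lowest adjusted p with 1 library left out was 0.0745. With the replicate block over all groups, the Gfap difference was 1.17 (adjusted p = 0.511, limma). Neither block led to a call of any of the 8 genes. In a block fit of the 6 EL and ELKO libraries alone, chosen after seeing the data, the lowest adjusted p of the 8 genes was 0.69. Of the 48 differences of the 8 genes, 13 changed sign when 1 library was left out, all of them at most 0.17 in size with all libraries. They include Vim between 5ELKO and ELKO (-0.14 without ELKO replicate 3), Gfap between 5ELKO and 5EL (-0.20 without 5ELKO replicate 1) and Serpina3n between 5ELKO and 5EL (0.20 without 5ELKO replicate 2). Without counts, no error from sequencing depth can be given for a gene.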
